A study of Mus musculus with 8 samples.

Results

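The regions described here are wide Mgea5 domains: stretches of at least 3000 bp called as 1 peak of the first of 2 Mgea5 ChIP-seq libraries, lying on chromosomes 1 to 19 more than 500 kb from the first and last peak of the chromosome, and touched by at least 1 bp of a peak of the second library. There were 2651 of them among 536877 peaks of the replicate 1 list, and the 6 lists of the series held 1719263 peaks. The members were chosen by width in replicate 1 and presence in replicate 2, so both are given as descriptions, and no value of the replicate 1 list supports a statement about the domains.

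The series profiled Mgea5, Panx2 and Polr1c by ChIP-seq, in which sonicated chromatin from formaldehyde-fixed cells is pulled down with an antibody and sequenced, with 2 replicate libraries for each protein and 2 input libraries. The cells were primary neural progenitors from the hippocampus of male C57BL/6 mice, and all libraries share this source. No genotype, age or treatment is given, and nothing in the labels says whether replicates came from separate cultures or animals. The input libraries were not analysed here. A peak list cannot check the labelled cell type, because it does not measure expression.

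Mgea5, also called OGA, is the enzyme that removes O-linked N-acetylglucosamine from serines and threonines of nuclear and cytoplasmic proteins, among them histone-modifying enzymes, transcription factors and RNA polymerase II. Panx2 belongs to the pannexins, membrane channel proteins, and is found in the brain. Polr1c is a common subunit of RNA polymerase I and RNA polymerase III, which transcribe the ribosomal RNA genes and the tRNA and other small RNA genes.

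Of the promoter windows in the RefSeq table, 302, belonging to 262 genes, lay wholly inside domains. The windows of 5 genes are printed because later results turn on them: the domain of highest fold (Eif3f), a start region shared by a gene pair (Mocs3, whose window overlaps that of Dpm1), a CpG-rich developmental gene (Hhex), the domain with the highest Polr1c fold in replicate 1 (Rad51ap1) and a repeated small-RNA locus (Gm40369). Each runs 5′ to 3′ from 250 bases before to 50 bases after the RefSeq transcript start in GRCm38.p6, the mm10 assembly, and capitals mark CpG dinucleotides.
Eif3f, chr7:108934165-108934464, plus strand: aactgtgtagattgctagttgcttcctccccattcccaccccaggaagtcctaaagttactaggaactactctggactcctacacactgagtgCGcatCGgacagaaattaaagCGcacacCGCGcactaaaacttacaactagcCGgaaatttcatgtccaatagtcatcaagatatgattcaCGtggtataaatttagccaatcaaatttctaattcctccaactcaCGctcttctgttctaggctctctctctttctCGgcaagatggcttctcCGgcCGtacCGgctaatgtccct
Mocs3, chr2:168230372-168230671, plus strand: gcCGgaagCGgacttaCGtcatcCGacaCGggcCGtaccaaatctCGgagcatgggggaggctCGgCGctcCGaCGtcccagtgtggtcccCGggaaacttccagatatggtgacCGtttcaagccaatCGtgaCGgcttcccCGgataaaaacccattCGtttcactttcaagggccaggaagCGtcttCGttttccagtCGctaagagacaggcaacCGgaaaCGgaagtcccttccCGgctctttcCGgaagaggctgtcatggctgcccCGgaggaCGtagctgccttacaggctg
Hhex, chr19:37434591-37434890, plus strand: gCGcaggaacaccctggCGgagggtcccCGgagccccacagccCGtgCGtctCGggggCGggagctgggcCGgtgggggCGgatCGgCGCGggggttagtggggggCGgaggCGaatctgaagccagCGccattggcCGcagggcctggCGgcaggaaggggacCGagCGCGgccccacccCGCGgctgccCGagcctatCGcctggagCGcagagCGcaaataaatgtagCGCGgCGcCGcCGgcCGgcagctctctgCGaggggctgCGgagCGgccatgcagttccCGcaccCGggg
Rad51ap1, chr6:126939538-126939837, minus strand: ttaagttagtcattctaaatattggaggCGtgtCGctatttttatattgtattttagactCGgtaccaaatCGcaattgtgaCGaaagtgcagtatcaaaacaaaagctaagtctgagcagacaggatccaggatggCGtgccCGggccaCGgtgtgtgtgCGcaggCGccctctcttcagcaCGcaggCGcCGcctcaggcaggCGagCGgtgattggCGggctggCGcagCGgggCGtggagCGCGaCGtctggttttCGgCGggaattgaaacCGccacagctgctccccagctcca
Gm40369, chr6:47653742-47654041, plus strand: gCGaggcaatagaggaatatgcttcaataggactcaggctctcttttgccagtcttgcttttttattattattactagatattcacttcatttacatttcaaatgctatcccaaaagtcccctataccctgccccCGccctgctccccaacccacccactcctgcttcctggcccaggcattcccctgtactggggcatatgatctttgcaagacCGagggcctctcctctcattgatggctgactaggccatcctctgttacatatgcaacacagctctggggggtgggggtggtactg
The Hhex window holds 37 CpG and the Gm40369 window 3, and the other windows fall between them, with 12 in Eif3f, 25 in Rad51ap1 and 26 in Mocs3.

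By width, the domains had a median of 3481 bp (quartiles 3196 and 3951 bp) and reached 10269 bp. Together they spanned 9800311 bp, 6.09% of the bases of the Mgea5 replicate 1 peaks that replicate 2 also touched. There were 613 domains of at least 4000 bp, 150 of at least 5000 bp and 13 of at least 7000 bp. The narrowest members, at 3000 bp, lay at Stim2, at Eif1a and at the non-coding gene Gm33384, with folds of 1.79, 1.87 and 1.99. Just under the limit, peaks of 2999, 2998 and 2998 bp lay at Dnajc1, Ikbkb and Prickle2, with folds of 1.79, 1.80 and 1.65. Fold here is the authors' enrichment of a peak over background as the caller MACS3 wrote it, and all fold, p and q values in the text are the authors'.

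The fold of the domains in replicate 1 had a median of 1.77 (quartiles 1.71 and 1.84) and ran between 1.44 and 2.43, and the narrower replicate 1 peaks touched by replicate 2 had a median of 1.72 (quartiles 1.64 and 1.83) and reached 5.08. A −log10 q above 0 was listed for 18.1% of domains and for 3.90% of the narrower peaks. A q of at most 0.01 was reached by 3 domains (0.113%), against 88 narrower peaks (0.0484%). They lay at chr14:19415692-19419614, with no gene of the table within 1000 bp, at chr17:39843024-39848816 over Rn18s-rs5, a ribosomal RNA sequence, and AY036118, and at chr13:119595666-119603439 inside Tmem267.

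Replicate 2 had peaks in most wide regions but seldom one wide peak. Of the 3079 wide replicate 1 peaks taken without the replicate 2 condition, 86.1% were touched by replicate 2, as were 35.0% of all replicate 1 peaks of those chromosomes, which have less width to be touched. Flanking windows as wide as those 3079 peaks were touched in 82.1% of cases, close to the peaks themselves. Replicate 2 peaks covered 24.0% of the bases of those 3079 wide peaks, 19.4% of flanking windows of equal width on both sides, and 17.9% of the bases of narrower replicate 1 peaks. By width class the covered share was 16.6% for peaks under 500 bp, 21.8% for 2500 to 3000 bp, 23.0% for 3000 to 4000 bp and 32.3% from 5000 bp up. The change across the limit of 3000 bp was thus gradual.

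Among the 2651 domains themselves, the median share of bases inside replicate 2 peaks was 23.1% (quartiles 13.2% and 37.5%). There were 333 domains at least 50% covered, 23 at least 90% covered and 453 under 10% covered. A single replicate 2 peak lay in 1192 domains, 2 peaks in 1101, 3 peaks in 312 and 4 or 5 peaks in 46. The widest replicate 2 peak touching a domain had a median width of 765 bp, and it was itself at least 3000 bp wide in 89 domains (3.36%). Across domains, replicate 1 fold and the highest replicate 2 fold had a Spearman correlation of 0.10 (n = 2651), and width and covered bases one of 0.22. These are descriptions over regions of the same 2 libraries.

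**Figure D1:**
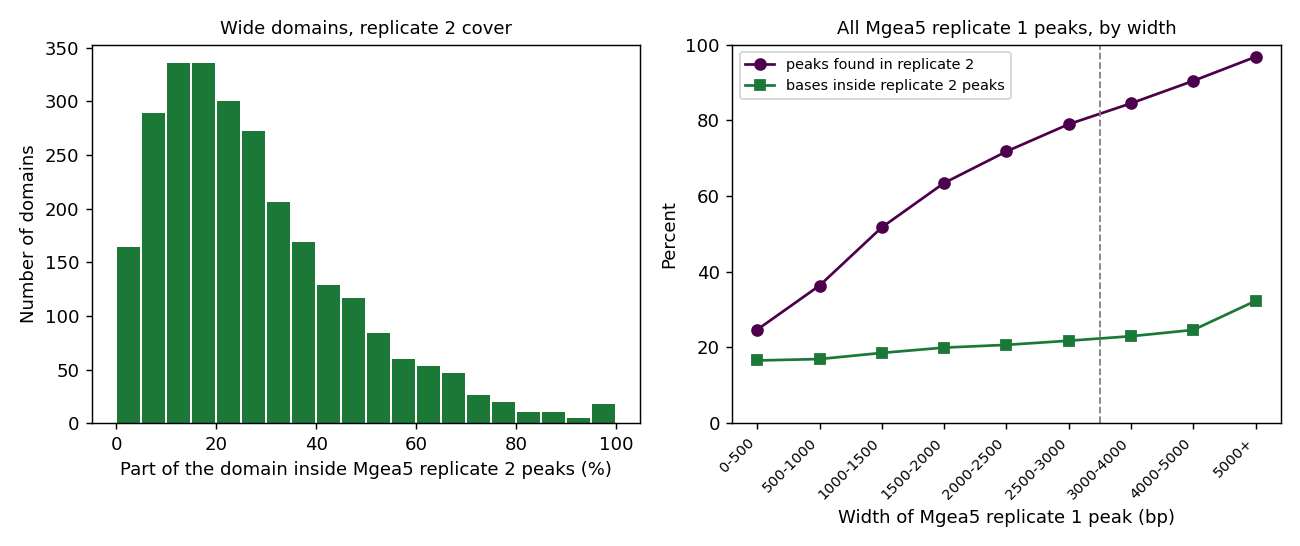
Left, number of wide domains by the percent of the domain inside Mgea5 replicate 2 peaks; right, for all Mgea5 replicate 1 peaks by width class in bp, the percent touched by replicate 2 and the percent of bases covered, with a dashed line at 3000 bp. Most domains sit at the low end (median 23.1%), and the covered share of bases moves between 16.6% and 32.3% across width classes with no step at the line.

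The deposited lists do not all come from the same run of the peak caller: directories in the peak names show 2 runs, 1 holding both Mgea5 lists, Panx2 replicate 2 and Polr1c replicate 2, and 1 holding Panx2 replicate 1 and Polr1c replicate 1. For Panx2 and Polr1c, a difference between replicates and one between runs cannot be told apart. Reads per library, the caller's control and its cut-offs are unknown here, so the level of coverage in a list is read against the flanks, narrower peaks or spans of that same list, and values of different lists that stand side by side do not rank the proteins or replicates.

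Panx2 peaks lay in nearly every domain in replicate 2 and in a smaller part of them in replicate 1. In replicate 2, 91.7% of domains had a Panx2 peak, against 84.5% of the equally wide flanks and 47% of the narrower peaks. In replicate 1, 29.4% of domains had one, against 27.7% of flanks and 11.2% of narrower peaks, so the share in replicate 1 stood close to that of the flanks. Counted in bases, Panx2 replicate 2 covered 32.9% of the domains, 23.6% of the flanks, 26.0% of the narrower peaks and 13.0% of the chromosome spans. Panx2 replicate 1 covered 6.55% of the domains, 5.87% of the flanks, 5.64% of the narrower peaks and 5.08% of the spans. Set against the flank before it, a domain was covered more by Panx2 replicate 2 in 1639 cases, less in 950 and equally in 62. For Panx2 replicate 1 these counts were 609, 579 and 1463, so most domains tied and the rest were split about evenly. Both Panx2 lists touched 709 domains, of the 779 that replicate 1 touched. Because replicate 2 touched 91.7% of all domains, this count shows no agreement between the lists beyond their separate shares.

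Polr1c peaks, which were called in narrow mode and are short, were scarce in the domains and scarcer beside them. In replicate 2, 20.9% of domains had a Polr1c peak, against 11.1% of flanks and 4.68% of narrower peaks. In replicate 1, 19 domains (0.717%) had one, against 21 of 5302 flanks (0.396%) and 0.111% of narrower peaks. Polr1c replicate 2 covered 1.83% of domain bases, 0.697% of flank bases, 1.17% of the bases of narrower peaks and 0.315% of the spans. Polr1c replicate 1 covered 0.155%, 0.0380%, 0.0443% and 0.0109% of the same 4 sets. Set against the flank before it, a domain was covered more by Polr1c replicate 2 in 518 cases, less in 219 and equally in 1914, and by Polr1c replicate 1 more in 18, less in 7 and equally in 2626. Leaving out the 3 domains with a q of at most 0.01, the share of domains with a Polr1c peak was 20.8% in replicate 2 and 0.604% in replicate 1. The share of domain bases was then 1.69% in replicate 2, against 0.697% of flank bases, and 0.0673% in replicate 1, against 0.0381% of flank bases, so most replicate 1 bases in domains lay in those 3. Polr1c lists of both replicates touched 17 domains, peaks of all 6 lists met in 13, and 133 domains held no Panx2 or Polr1c peak at all.

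**Figure D2:**
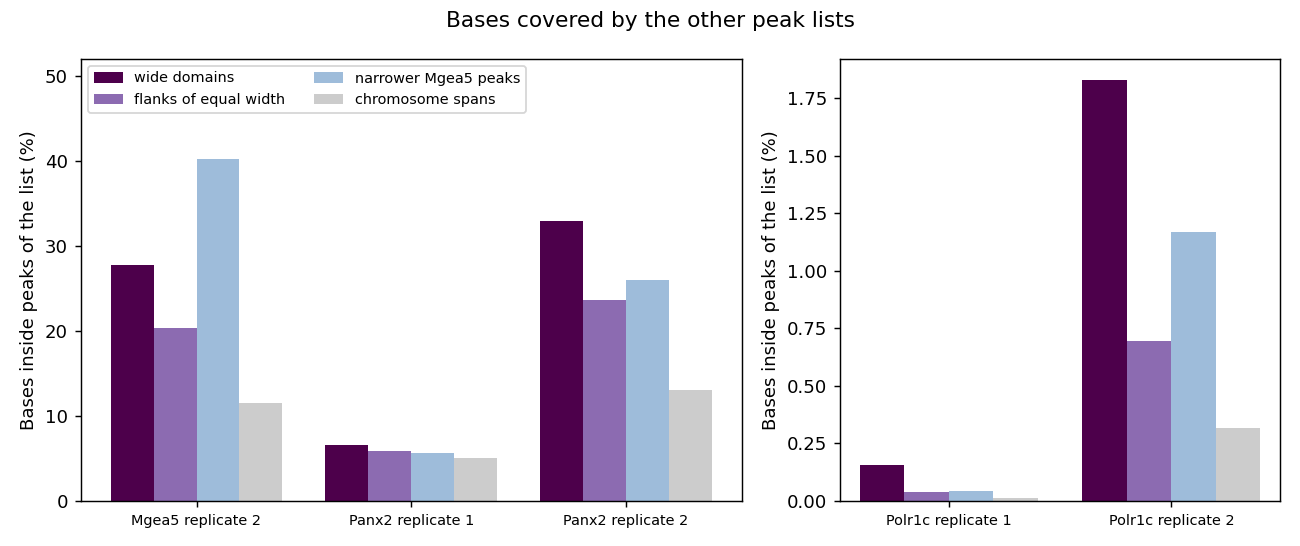
Percent of bases inside the peaks of each list (Mgea5 replicate 2, Panx2 and Polr1c replicates 1 and 2), for the wide domains, their flanks of equal width, narrower Mgea5 replicate 1 peaks touched by replicate 2, and whole chromosome spans; single values with no error, since each bar is 1 list. Panx2 replicate 2 covers 32.9% of domain bases and 23.6% of flank bases, and Panx2 replicate 1 covers 6.55% and 5.87%. Narrower peaks stand high for Mgea5 replicate 2 (40.2%), but they and the domains had to touch that list. Without that condition it covers 17.9% of the bases of narrower and 24.0% of those of wide replicate 1 peaks.

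The flanks were themselves above the chromosome average. Mgea5 replicate 2 covered 20.3% of flank bases and 11.5% of the spans, and Panx2 replicate 2 covered 23.6% and 13.0%. Measured at single positions out to 20 kb from the domain centre, Panx2 replicate 2 peaks were present at 33.3% of centres, 24.9% of positions 2 kb before them and 23.3% of positions 20 kb before them. Mgea5 replicate 2 peaks were present at 27.3%, 22.7% and 18.7% of the same positions. Polr1c replicate 2 peaks were present at 1.96% of centres and 0.717% of positions 20 kb before them. The higher Mgea5 replicate 2 value at centres is partly fixed by the rule, which asked for a replicate 2 peak in each domain. Panx2 replicate 1 peaks were present at 6.41% of centres and 5.58% of positions 20 kb before them, a nearly flat line.

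**Figure D3:**
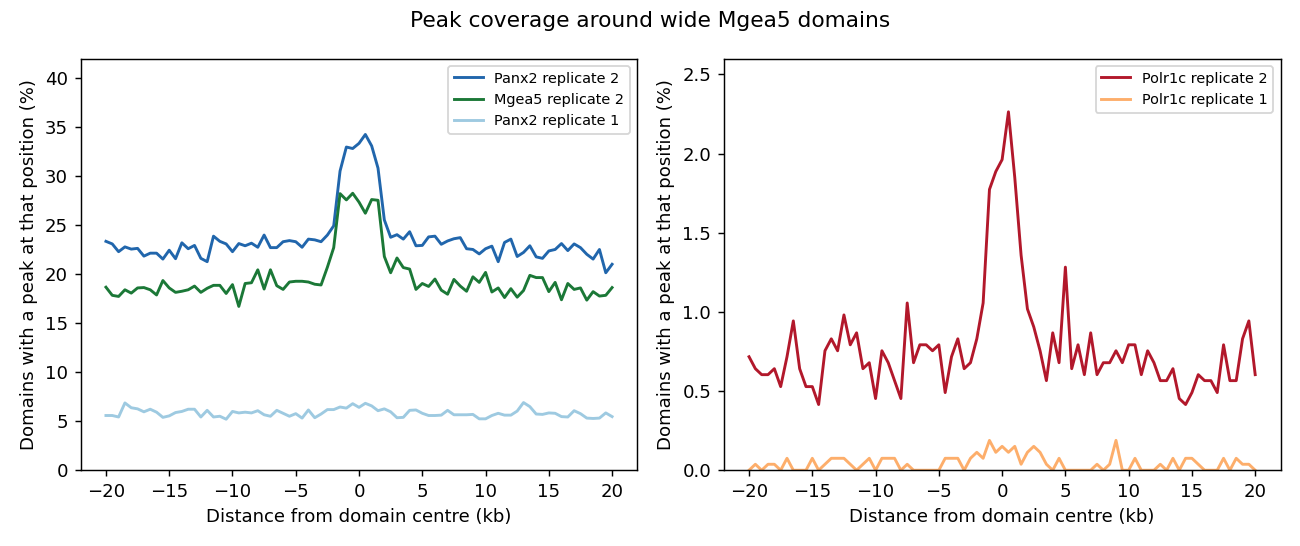
Percent of the 2651 domains with a peak of each list at a given distance in kb from the domain centre; left, Panx2 replicate 2, Mgea5 replicate 2 and Panx2 replicate 1; right, Polr1c replicates 2 and 1, on its own scale. Panx2 replicate 2 stands at 33.3% at the centre and 23.3% at 20 kb before it, Polr1c replicate 2 at 1.96% and 0.717%, and Panx2 replicate 1 shows a nearly flat line near 6%.

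Domains lay at gene ends somewhat more often than their flanks did. A protein-coding gene end, start or finish, was within 1000 bp of 537 domains (20.3%), against 15.8% of flanks and 6.49% of narrower peaks, which have less width to reach an end. Protein-coding genes covered 62.1% of domain bases, 60.1% of flank bases, 54.1% of the bases of narrower peaks and 41.0% of the spans. A promoter window was touched, in whole or part, by 267 domains (10.1%), against 4.07% of flanks and 1.89% of narrower peaks. Narrower peaks have less width to touch one. Of 20348 protein-coding genes, 644 (3.16%) had a domain at an end and 1691 (8.31%) had one in the gene or within 1000 bp. Among the 16291 genes whose strand the promoter table gives, 313 (1.92%) had a domain at the start, 237 (1.45%) at the finish and 41 at both. Genes with a domain anywhere had a median length of 53012 bp, against 17625 bp for all genes.

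By position, 267 domains touched a promoter window in whole or part, and 298 more touched or neared a gene end. Of the rest, 1264 lay in a gene body alone and 822 away from protein-coding genes. Widths were alike, with medians of 3524, 3597, 3461 and 3464 bp. Coverage by the second Mgea5 library was alike too, with medians of 25.3%, 22.4%, 23.6% and 22.2%. The other proteins were uneven: Panx2 replicate 2 covered 46.4% of the bases of promoter domains, 38.8% at other gene ends, 29.9% in gene bodies and 30.9% away from genes. A Polr1c replicate 2 peak lay in 40.1%, 28.5%, 16.5% and 18.7% of the 4 classes. Panx2 replicate 1 covered 5.43%, 5.86%, 6.20% and 7.72% of their bases. Taken as promoter windows of equal length, 73.5% of those inside domains were touched by Panx2 replicate 2, against 58.1% inside flanks, 71.7% inside narrower peaks and 49.995% of all promoters. Polr1c replicate 2 touched 11.9% of those inside domains, against 5.76% inside flanks, 10.4% inside narrower peaks and 5.38% of all. By this measure the promoters in domains stood close to those in narrower Mgea5 peaks.

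The promoters inside domains were GC-rich. Their median GC content was 63.5%, against 57.7% for promoters inside flanks, 62.3% for those inside narrower Mgea5 peaks and 57.0% for all 19888 promoters of the table. An observed-over-expected CpG ratio of at least 0.6 was found in 222 of 302 (73.5%), against 52.4% of flank promoters, 71.4% of promoters inside narrower Mgea5 peaks and 49.0% of all. Promoters of narrower peaks thus stood close to those of domains. Searched on both strands, TATAAA occurred in 7.95% of domain promoters, against 6.28% in flanks, 8.21% in narrower peaks and 12.7% of all promoters. GGGCGG, the core of the GC box, occurred in 67.9%, against 49.7%, 62.4% and 47.1% of these sets, and CCAAT in 34.4%, against 42.4%, 32.5% and 38.2%. Of the printed windows, Eif3f and Rad51ap1 hold TATAAA, and Hhex and Gm40369 hold GGGCGG. A match of letters is not a binding site. Of the 302 promoter windows in domains, 124 (41.1%) were touched by a replicate 2 Mgea5 peak, a value raised by the rule, which asked for such a peak somewhere in each domain.

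**Figure D4:**
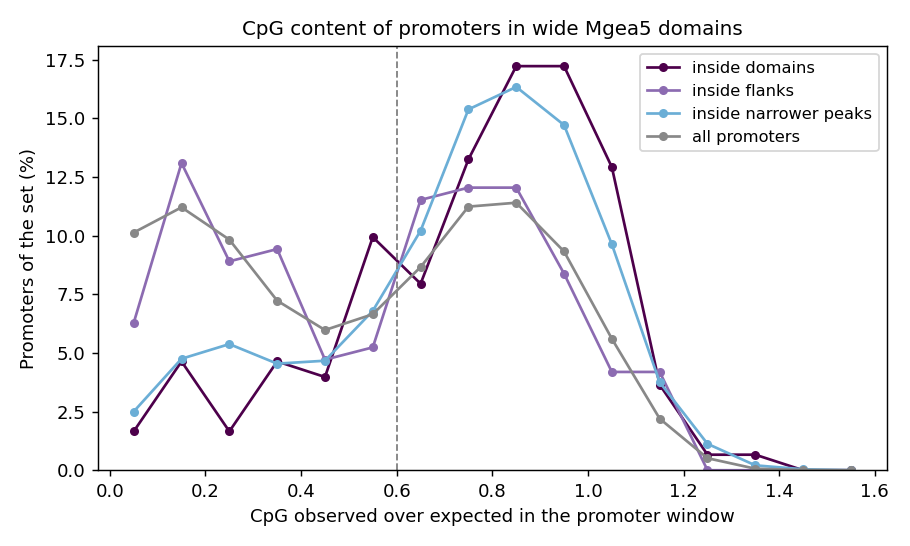
Percent of promoters by the ratio of observed to expected CpG, in bins of 0.1, for promoters inside wide domains (n = 302), inside their flanks (n = 191), inside narrower Mgea5 peaks (n = 2400) and all promoters of the table (n = 19888), with a dashed line at 0.6. The domain promoters lie mostly right of the line (73.5%), against 52.4% in flanks, 71.4% in narrower peaks and 49.0% of all.

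The widest domains were led by a zinc finger gene cluster on chromosome 4. Inside Zfp978, a zinc finger protein gene, domains of 10269 and 9522 bp stood with folds of 1.86 and 1.81, and replicate 2 covered 64.1% and 81.1% of them. Ahnak2, a large scaffold protein gene on chromosome 12, held 8899 bp with a fold of 2.03, covered 60.2% by 5 replicate 2 peaks and wholly by a Panx2 replicate 2 peak of 8979 bp. A domain of 8411 bp over the pseudogenes Vmn2r-ps16 and Gm13241 had a fold of 1.81 and was covered 63.4%. At Zfp384 and its neighbour Ing4, which encodes a reader of histone methylation, 7879 bp had a fold of 1.83 and were covered only 12.8%. Elovl6, a fatty acid elongase gene, held 7808 bp at a fold of 1.79 with 30.6% covered. The rest of the widest 10 lay at Tmem267 (7774 bp), Gm7954 (7693 bp), Atp5a1, which encodes the ATP synthase alpha subunit (7394 bp), and Sp2, a transcription factor gene (7244 bp), where replicate 2 covered 91.7%, 48.7%, 53.5% and 9.14%.

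Of the 10 domains of highest replicate 1 fold, 5 touched a promoter window, those of Eif3f, Dpm1 with Mocs3, Mcm3ap, Wdr74 and Hhex. Over all domains, 10.1% touched one in whole or part. The 10 were picked on replicate 1 fold, so this count does not link fold to promoters. Median replicate 1 folds were 1.78 in domains with a promoter, 1.78 at other gene ends, 1.77 in gene bodies and 1.77 away from genes. Eif3f, which encodes a subunit of the translation initiation factor eIF3, had a fold of 2.43 and a q of 0.245 over chr7:108932612-108935778. A replicate 2 peak of 882 bp there had a fold of 2.63 and a q of 0.006. Chchd2, a mitochondrial protein gene, had a fold of 2.34 over 4842 bp, and its replicate 2 peaks reached a fold of 3.29 with a q of 3.84e-07. That was the highest replicate 2 fold in any domain. The pair Dpm1 and Mocs3, which share the start region printed above, had 2.29 in replicate 1 and up to 2.03 in replicate 2. Ybey and Mcm3ap, another pair, had 2.22 and 2.41, and a Panx2 replicate 2 peak of 4266 bp covered their domain wholly. Sall4, a zinc finger transcription factor gene, had 2.17 and 1.92. Wdr74, involved in ribosome assembly, had 2.15 and 2.14. Hhex, a homeobox gene, had 2.14 and 2.10, and Panx2 replicate 2 covered 79.0% of its domain. L3mbtl2, a Polycomb-group gene, with Chadl had 2.14 and 1.59, and Asap1, an Arf GTPase-activating protein gene, had 2.14 and 1.95. The replicate 2 q was 0.0157 at Ybey and Mcm3ap and between 0.28 and 1 at Dpm1 and Mocs3, Sall4, Wdr74, Hhex, L3mbtl2 and Asap1. A domain at chr6:41878369-41881455 away from protein-coding genes had 2.17 and 1.85, with a replicate 2 q of 1. Of these 10 domains, Chchd2 and Asap1 held a Panx2 replicate 1 peak, and none held a Polr1c replicate 1 peak. Over all domains 29.4% held a Panx2 replicate 1 peak and 0.717% a Polr1c replicate 1 peak, so these counts do not set the 10 apart.

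The domains that both Polr1c lists touched included loci of small and ribosomal RNA. At Rad51ap1, a DNA repair gene, and the adjacent D6Wsu163e, Polr1c peaks of 523 and 473 bp had folds of 9.72 in replicate 1 and 8.71 in replicate 2, with q of 5.01e-15 and 2.77e-37. The Mgea5 fold of that domain was 1.63 with a q of 1. Both Polr1c peaks touch the Rad51ap1 window printed above. At the histone gene H4c8, whose domain also holds the tRNA gene n-TMcat9, the Polr1c folds were 4.85 and 4.93 with q of 1.01e-05 and 3.05e-07. At Gli1, an effector of Hedgehog signalling, they were 3.63 and 4.64, with q of 1 in replicate 1 and 3.89e-11 in replicate 2. At Duxbl3 they were 4.50 and 4.54, with q of 0.036 and 7.72e-09.

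On chromosome 6, the domain of Gm40369, which also holds Rn4.5s, a small RNA gene, had Polr1c folds of 6.11 and 3.22, and that of Gm40365 and Gm36327 had 5.10 and 3.55. The Gm36327 promoter window matches the printed Gm40369 window in 300 of 300 bases, so reads from these copies could not be assigned with certainty, and these loci are not independent. The other members of the 10 were chr9:121929682-121932689, chr1:190300077-190304572 and chr8:20700957-20707960, all with no gene of the table within 1000 bp, and A530032D15Rik on chromosome 1. Their Polr1c folds lay between 3.34 and 3.90 in replicate 1 and between 3.23 and 5.41 in replicate 2. The replicate 1 q there was 1 on chromosome 9, 0.629 and 0.133 on chromosome 1 and 0.276 on chromosome 8, so these replicate 1 peaks were weak, and the replicate 2 q lay between 1.26e-09 and 0.00534.

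The 3 domains with a q of at most 0.01 held peaks of all 6 lists. At chr17:39843024-39848816, over Rn18s-rs5, peaks of Mgea5 replicate 2, Panx2 replicates 1 and 2 and Polr1c replicates 1 and 2 covered 99.2%, 97.7%, 100%, 87.9% and 99.8% of 5793 bp. At chr14:19415692-19419614 they covered 100%, 79.8%, 99.9%, 43.1% and 89.2% of 3923 bp. At Tmem267 they covered 91.7%, 51.2%, 99.8%, 24.0% and 68.3% of 7774 bp. Other domains were covered as far by single lists, such as Ahnak2 by Panx2 replicate 2 (100%). The highest Panx2 replicate 1 folds at the 3 places were 1.34, 1.28 and 1.49, against a median of 1.81 for peaks of that list in domains. The lowest q of that list there were 0.52, 8.67e-119 and 0.000166. Of its peaks in the chromosome parts used, 2 in domains had a q of at most 0.01 and 0 elsewhere. Low fold there thus did not go with high q throughout.

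Domains gathered on some chromosomes. Chromosome 3 held 339 (12.8%), at 2.17 domains per Mb, against 1.11 over all chromosomes, and chromosome 19 held 28, at 0.489 per Mb. Chromosome 3 also held 10.5% of the shared Mgea5 peaks, so its 17.4 domains per 1000 shared peaks stood nearer to the 14.4 of all chromosomes. Among the Mgea5 replicate 2 peaks of at least 3000 bp, 135 of 779 (17.3%) lay on chromosome 3, of Panx2 replicate 1 peaks 9.74% and of Panx2 replicate 2 peaks 7.27%. Of the autosomal peaks of any width in these lists, chromosome 3 held 8.69%, 8.28% and 7.75%. Over 18 chromosomes, leaving out chromosome 14, domains per Mb and protein-coding genes per Mb had a Spearman correlation of 0.32, and domains and shared peaks per Mb one of 0.69, as descriptions. On chromosome 14, 72 domains lay before 45 Mb and 1 after it. That chromosome held 2.35% of the shared Mgea5 peaks and 2.75% of the domains. Its 16.9 domains per 1000 shared peaks stood above the 14.4 of all chromosomes. Shared peaks before and after 45 Mb are not given here, so the split of domains is not set against them.

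**Figure D5:**
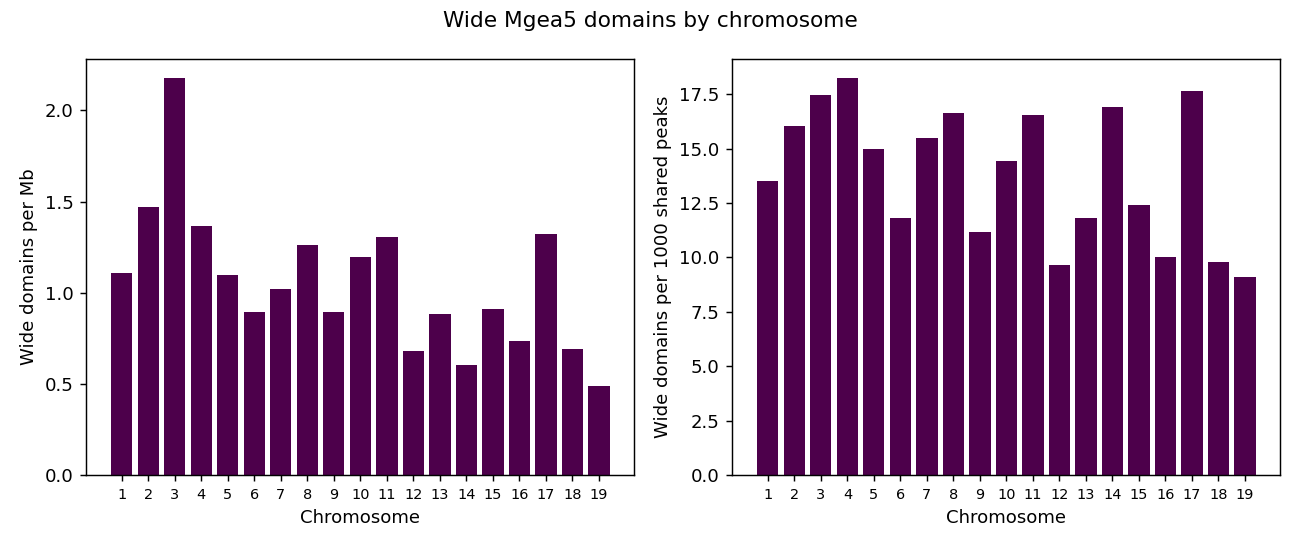
Wide Mgea5 domains on each of chromosomes 1 to 19, left per Mb of the span used, right per 1000 replicate 1 peaks touched by replicate 2. Chromosome 3 stands highest per Mb (2.17) and chromosome 19 lowest (0.489); per 1000 shared peaks chromosome 4 stands highest (18.2).

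Most domains stood alone, with a median gap of 320 kb to the next, and 415 gaps (15.8%) were of at most 50 kb. Linking domains over such gaps gave 14 clusters of at least 4 domains, holding 96. The largest, chr4:147083771-147677171, held 33 domains over 593 kb with the zinc finger genes Zfp978, Zfp991, Zfp988, Zfp982, Zfp985, Zfp979 and Zfp534, and chr4:146434287-146555788 held 11 with Zfp992, Zfp981 and Zfp993. The first of 4 clusters in the zinc finger stretch of chromosome 4 held no protein-coding gene, but Znf41-ps and Vmn2r-ps15 among others. From the first to the last of these 4 clusters, chr4:145774010-147677171, a stretch picked after these values were seen, there were 60 domains. Replicate 2 covered a median of 64.4% of the bases of these domains, against 22.5% in the remaining domains. Of the 89 domains with a replicate 2 peak of at least 3000 bp, 32 (36.0%) lay there. Panx2 covered 24.5% of their bases in replicate 1 and 46.3% in replicate 2, against 6.07% and 32.6% in the remaining domains. The 5 domains with the widest replicate 2 peaks all lay there, under replicate 2 peaks of 10128, 9104 and 7145 bp, 2 of which span 2 domains each. Members of such gene families can be near-identical, and then the reads of one may be placed on another; the lists do not show how such reads were treated. In the cluster on chromosome 8 near Gm21119 (6 domains), the median share of a domain's bases covered by replicate 2 was 55.1%. This median was 65.9% in the cluster on chromosome 1 over Gm38510 (5 domains) and 33.9% in that at Rap1gds1 on chromosome 3 (5 domains).

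Counts in gene lists are read against the 3.16% of all genes with a domain at an end and the 8.31% with one anywhere, and longer genes have more room for a domain. Of 29 neural progenitor genes none had a domain at an end and 3 had one inside, the RNA-binding protein genes Msi2 and Msi1 and the cadherin gene Cdh2. The Msi1 domain of 3589 bp was covered 95.9% by replicate 2 and that of Msi2, 4471 bp, 33.5%. Of 22 neuronal genes 1 had a domain anywhere, Map2. Of 10 astrocyte genes 2 had one, the glutamate transporter gene Slc1a2 at its end and the connexin gene Gja1, of 11 microglial genes P2ry12 alone, and of 9 endothelial genes Flt1 and Cdh5 at an end. No oligodendrocyte gene had one. These counts are small and only say where peaks lay.

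Among signalling genes, 5 of 36 Wnt pathway genes had a domain at an end and 8 anywhere. They included the receptor gene Fzd10 (4311 bp, 34.0% covered by replicate 2), the transcription factor gene Tcf7l2 (4033 bp, 37.3%) and the feedback inhibitor gene Axin2 (3956 bp, 33.6%). Of 27 Notch pathway genes 3 had one at an end and 6 anywhere, among them the glycosyltransferase gene Rfng (4256 bp) and the target gene Hey1 (3937 bp). Of 11 genes of O-GlcNAc and hexosamine metabolism 2 had a domain, Gfpt2 inside (5241 bp) and Gfpt1 at its end (3589 bp), paralogs that encode the enzyme that commits glucose to that pathway. Of 31 genes for RNA polymerases I and III and their factors 3 had one at an end and 6 anywhere, among them Taf1d (3562 bp, 74.3% covered), Taf1a (3494 bp, 9.87%) and Gtf3c5 (3437 bp, 26.2%).

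Among chromatin genes, 7 of 30 for histone acetylation had a domain anywhere, the widest at Hdac4 (5728 bp), Ncor1 (4655 bp) and Kat6b (4063 bp). Among 30 remodeller genes 6 had one, among them Pbrm1 (5253 bp), Brd7 (4491 bp) and Arid1b (3965 bp). Among 28 Polycomb genes 4 had one, among them Cbx2 (4027 bp), L3mbtl2 (3891 bp) and Kdm2b (3340 bp), and among 14 genes of histone H3 lysine methyltransferase complexes 3 had one, Setd1b, Kmt2d and Ncoa6. Of 50 genes named with the Usp prefix of ubiquitin-specific proteases, 15 had one anywhere and 4 at an end, led by Usp15 (4419 bp), Usp24 (4370 bp) and Usp25 (3987 bp). Their median length was 48432 bp. Of 15 lipid synthesis genes 5 had one, all inside the gene, among them Srebf2 (4035 bp) and Acaca (3739 bp), and of 36 kinesin genes 9 had one, led by Kif14 (5520 bp), Kif26b (4841 bp) and Kif5c (4331 bp).

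Of 36 cell cycle genes 4 had a domain anywhere, among them Top2a, Aurka and E2f4, and 3 of these 4 at an end. Of 41 splicing factor genes 3 had one, U2af1, Son and Srsf11, all at an end, and of 17 genes for mRNA 3-prime end processing 2 had one, Cpsf1 and Cpsf6. Of 80 cytosolic ribosomal protein genes 4 had one, among them Rps13, Rpl22 and Rps24, and of 57 clustered histone genes 3 had one, with H2bc3 and H3c3 sharing the same domain. Short and tandem receptor genes were poor in domains, with 2 of 1098 olfactory receptor genes (0.182%), Olfr1408 and Olfr279, and 2 of 340 vomeronasal receptor genes, Vmn2r4 and Vmn2r1, whose median lengths were 951 and 960 bp. None of 57 clustered protocadherin genes and none of 17 microRNA processing genes had one. Of 384 genes named Zfp, 34 (8.85%) had a domain anywhere and 18 at an end, a share near that of all genes. Of 362 solute carrier genes 26 had one, led by Slc25a33, Slc25a54 and Slc16a6. Of 24 long synaptic and adhesion genes 5 had one, with 4 domains in Cdh13. Of 42 collagen genes 4 had one, among them Col24a1, Col25a1 and Col4a3, of 39 Hox genes Hoxc9, and of 21 pannexin and connexin genes Gjd3 and Gja1.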

How the data were processed

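ChIP-seq peak lists of Mgea5, Panx2 and Polr1c (2 replicates each) were analysed. The build is mm10, and the tools listed in the submitters' processing notes are MACS3 3.0.0a5, Bowtie2 2.3.5 and Trim Galore. Depth, caller control and cut-offs were not given in the sources used, so the precision that depth gives is unknown. The authors' deposited values per peak are a fold (a ratio to background), a −log10 p-value, a −log10 q-value and a score, the last not used. They served to describe and rank peaks of the same list. Broad and narrow lists differ in layout, so list lengths do not compare proteins.

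Domains were selected by the rule given at the start of the results. Flanks are windows of the domain's own width on each side. Overlap needed 1 bp, and genes, strands and promoters came from RefSeq tables of GRCm38.p6, in which exons and introns were not distinguished. Clusters link domains at most 50 kb apart. Named domains were the 10 widest, the 10 of highest fold, the 5 under the widest replicate 2 peaks, 10 touched by both Polr1c lists, those on either side of the width limit and up to 3 genes per list by widest domain; some genes are not reported here. Members, gene lists and these choices were made with earlier results of these data known, and the 3 domains of low q, the clusters and the promoter comparison were chosen after values were seen. No test was run: each protein has 2 libraries and the members were chosen on width. Overlap code was tested on simulated intervals. Python 3.11.15, numpy 2.4.6 and pandas 2.3.3 were used. Alternatives changed the width limit, replicate 2 cover, q, margins, chromosomes, gene window and overlap, and left out each Mgea5 replicate. No genome sequence was used, so no base composition of whole domains is given.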

Additional observations from a re-analysis of the deposited data

Results flagged for a closer look

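Wide Mgea5 replicate 1 peaks also lay outside the chromosome parts that the rule allows, in data the comparisons did not use. On chromosome X there were 16 peaks of at least 3000 bp, of which replicate 2 touched 14. On unplaced contigs there were 22. Within 500 kb of the first or last peak of an autosome there were 32, of which replicate 2 touched 29, and the widest of these spanned 38296 bp. No control list was used against which to set these counts.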

How the results depend on the processing

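A value is called moved where it left the spread (1 SD) between the domain sets of the single Mgea5 libraries, or, for the count, changed by over 1.5 times. Of 125 values under 15 alternatives, 81 stayed within it and 44 moved. That spread was itself taken from the sets given by leaving out replicate 1 or replicate 2. The labels of those alternatives were thus largely fixed in advance and say nothing on stability, though they enter these counts. At a width limit of 2500 bp there were 5721 domains, 87.2% with a Panx2 replicate 2 peak and 17.5% with a Polr1c replicate 2 peak. At 4000 bp there were 613, with 97.4% and 29.4%, and 2.38% of bases under Polr1c replicate 2. At 5000 bp there were 150, with Panx2 peaks in 44.0% (replicate 1) and 99.3% (replicate 2), Polr1c peaks in 4.67% and 40.0%, 37.4% and 3.81% of bases under Panx2 and Polr1c replicate 2, and 26.7% at a gene end. The 333 domains at least 50% covered by replicate 2 had a median cover of 61.9%, Panx2 replicate 1 peaks in 45.6%, Polr1c peaks in 3.30% and 30.0%, 40.1% and 4.53% of bases under Panx2 and Polr1c replicate 2, and 55.7% of bases in genes. A −log10 q of at least 2 left 3 domains, with a median cover of 99.2%, Panx2 and Polr1c peaks in 100% in each replicate, 99.9% and 83.4% of bases covered, 0% at a gene end and 44.4% of bases in genes. Without margins, Polr1c replicate 2 covered 2.19% of bases. A gene window of 5000 bp gave 33.5%. Leaving out replicate 1 or replicate 2 gave 769 to 3079 domains, Panx2 peaks in 28.0% to 36.0% (replicate 1) and 88.8% to 91.4% (replicate 2), Polr1c peaks in 0.682% to 1.95% and 18.6% to 20.3%, 29.0% to 32.9% and 1.76% to 2.17% of bases under Panx2 and Polr1c replicate 2, 13.9% to 20.7% at a gene end and 56.2% to 62.5% of bases in genes; cover by replicate 2 was 19.8% without the replicate 2 condition and has no value without replicate 1. Leaving out chromosome 14, the chromosome 4 zinc finger region or the 3 domains of low q, the last 2 chosen after seeing the data, moved none of the values. The cause of the moves was not tested. No paired analysis was possible because no result comes from a test.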

Other observations

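Counting all domains, within protein-coding genes or not, 319 (12.0%) touched a long non-coding RNA gene, against 11.5% of flanks, and 71 (2.68%) a pseudogene, against 2.58% of flanks. Of 1115 microRNA genes, 9 (0.807%) lay inside or touched domains: Mir7655, Mir7014, Mir1956, Mir6381, Mir6402, Mir3097, Mir6947, Mir3082 and Mir877. A microRNA gene was touched by 0.339% of domains, close to the 0.321% of flanks. Replicate 2 covered between 2.09% (Mir7655) and 41.5% (Mir6947) of these domains.

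Several long genes held more than one domain. There were 43 genes with at least 3 domains in the gene. St6galnac3, a sialyltransferase gene of 526860 bp on chromosome 3, held 6, Sipa1l3 on chromosome 7 held 5, and Ppp3ca, the calcineurin catalytic subunit gene, Rere, Rgs7, Sox5 and Cadps held 4 each. Per 100 kb of gene these ranged from 0.419 in Sox5 to 2.52 in Sipa1l3.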
